A study of Mus musculus with 4 samples.

Results

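The neuronal filament and growth cone genes are 10 genes whose proteins build or regulate the cytoskeleton of a neurite: *Prph*, *Nefl*, *Nefm*, *Nefh*, *Ina*, *Stmn2*, *Stmn3*, *Stmn4*, *Tubb3* and *Gap43*. They were taken by gene symbol from the count of every annotated gene, and each matched 1 of the 52636 genes in the mouse RNA-seq data. All 10 passed the filter on low counts that left 19041 genes for testing. The cells were sorted for the red fluorescent protein tdTomato, which marks cells that have expressed *Eya1* and their descendants, from kidneys of mid-gestation embryos 48 h after tamoxifen. *Eya1* encodes a transcriptional coactivator of the nephron progenitor cells, the stem-like cells that form the filtering units of the kidney.

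Control cells were *Eya1* CreER;tdTomato and *Eya1*cKO cells were *Eya1* CreER;*Eya1* fl/fl;tdTomato, with 2 libraries of 5000 sorted cells for each genotype. Both genotypes carried the CreER knock-in at *Eya1*, carried the tdTomato reporter at R26, received tamoxifen and were on a mixed C57BL/6J and 129/Sv background. The controls therefore were not free of Cre or of tamoxifen, and recombination was limited to cells that drive CreER from *Eya1*. Cell suspensions of several embryos were combined before sorting and the libraries of a genotype were separate portions sorted together, so the *P* values measure the spread between portions and not between litters.

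The libraries held 17457452 to 37999342 reads assigned to genes, and both *Eya1*cKO libraries were shallower than both control libraries. Between 26486 and 27091 genes had a read in the controls and between 20538 and 21455 in *Eya1*cKO. The share of reads that the counting assigned to no annotated feature was 12.9% to 13.9% in the controls and 20.9% to 22.7% in *Eya1*cKO. Reads that did not align made up 6.32% to 6.69% in the controls and 12.7% to 12.9% in *Eya1*cKO. *Eya1* itself was counted 6612 and 6420 times in the control pair against 377 and 219 times in the *Eya1*cKO pair, a log2 fold change of -3.60 (SE 0.18; adjusted *P* = 0.00019 in edgeR's quasi-likelihood test). The 9 nephron progenitor markers, *Six2* and *Pax2* among them, were present in the controls at a summed 1762 to 1776 CPM (reads of a gene per 1000000 reads of the library), and all 9, of which *Eya1* is 1, were lower in *Eya1*cKO.

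Intermediate filaments fill the axon of a neuron and set its calibre. In mature axons the light, medium and heavy neurofilament proteins (*Nefl*, *Nefm*, *Nefh*) copolymerize with alpha-internexin (*Ina*) or, in peripheral neurons, with peripherin (*Prph*). Stathmins bind tubulin dimers and promote microtubule turnover, and the neuronal members *Stmn2* to *Stmn4* are attached to membranes of the Golgi and the growth cone. *Tubb3* encodes the beta tubulin used as a label of young neurons, and *Gap43* a phosphoprotein on the inner membrane of the growth cone. Many genes of this kind carry binding sites for REST, a repressor of neuronal genes outside the nervous system that works through corepressors, and the series asked about *Eya1* together with those corepressors.

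The promoter sequences of 4 of the 10 genes, *Prph*, *Ina*, *Stmn3* and *Tubb3*, were in the RefSeq set used here, from 250 bases before the transcription start to 50 bases from it on. The 3 printed here are those of *Tubb3*, which had the largest change among the called genes with reads in both genotypes, of *Ina*, which missed the threshold most narrowly, and of *Prph*, whose *Eya1*cKO libraries differed most. Capitals mark a TATA box (TATAAA), an E-box (CAGCTG) or the downstream part of the REST element RE1 (GGACAG, or CTGTCC where it lies on the other strand), searched on both strands. None of the motif letters overlap.

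*Tubb3* promoter, chr8:123411303-123411602, plus strand, GRCm38.p6: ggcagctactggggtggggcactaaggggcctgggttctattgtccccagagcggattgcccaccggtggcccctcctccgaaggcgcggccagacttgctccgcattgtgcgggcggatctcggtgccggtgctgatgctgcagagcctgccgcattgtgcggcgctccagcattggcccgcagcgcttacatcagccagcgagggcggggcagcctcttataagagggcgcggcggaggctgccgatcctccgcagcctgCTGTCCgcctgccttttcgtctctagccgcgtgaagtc

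*Ina* promoter, chr19:47014431-47014730, plus strand, GRCm38.p6: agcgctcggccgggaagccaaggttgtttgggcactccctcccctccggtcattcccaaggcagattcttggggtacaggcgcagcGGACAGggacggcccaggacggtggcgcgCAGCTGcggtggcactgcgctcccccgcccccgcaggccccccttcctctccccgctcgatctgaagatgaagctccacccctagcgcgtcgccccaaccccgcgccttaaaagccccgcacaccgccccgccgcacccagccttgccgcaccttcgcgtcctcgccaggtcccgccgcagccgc

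*Prph* promoter, chr15:99054924-99055223, plus strand, GRCm38.p6: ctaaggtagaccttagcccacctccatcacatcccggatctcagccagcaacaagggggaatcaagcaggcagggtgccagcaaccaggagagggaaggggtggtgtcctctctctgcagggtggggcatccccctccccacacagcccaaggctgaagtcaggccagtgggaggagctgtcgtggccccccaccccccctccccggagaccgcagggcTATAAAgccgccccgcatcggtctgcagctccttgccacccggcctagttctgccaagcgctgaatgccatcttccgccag

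The GGACAG letters lay 164 bases before the start in *Ina* and on the reverse strand, 12 bases after it, in *Tubb3*, and 22.2% of 32851 mouse promoters of this length hold them. The E-box of *Ina* lay 135 bases before the start and is found in 16.3% of promoters. The TATA box of *Prph* lay 31 bases before the start and is found in 13.6%. The upstream part of RE1 (TTCAGCACC), which 0.371% of promoters hold, was in none of the 4 windows, and the *Stmn3* window held no match to any of the 4 motifs.

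Expression of *Nefm*, *Tubb3*, *Gap43* and *Stmn4* was higher in *Eya1*cKO than in control at an adjusted *P* under 0.05, and 0 of the 10 were lower by edgeR. By DESeq2, which gave *Nefh* no adjusted *P*, 4 of the other 9 were higher and 0 were lower. Over all genes it called 1808 of 19702 higher and 6.57% lower. At an unadjusted *P* under 0.05 in edgeR, 7 of the 10 were higher, beside 14.2% of all genes, and 1, *Nefh*, was lower, beside 14.6%. *Stmn4* and *Nefh* passed the filter on low counts only through the genotype in which they had reads. The 4 of 10 that edgeR called stand beside the 981 of 19041 genes tested that were higher (5.15%) and the 839 that were lower (4.41%). In 8 of the 10 genes both *Eya1*cKO libraries lay above both control libraries, which 25.3% of all genes did. *Nefh* lay below in both, as 30.0% of all genes did, and the libraries of *Prph* overlapped. The median log2 fold change of the 10 genes was 1.89, with *Nefh* and *Stmn4* set at their bounds or at their fitted values, and 0.02 over all genes tested. Their summed level went from 36.1 and 32.6 CPM (control 1, control 2) to 102 and 115 CPM (*Eya1*cKO 1, *Eya1*cKO 2). In RNA from sorted cell populations, more cells of a type and more RNA per cell cannot be told apart.

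Removing 1 library changed how many of the 10 genes were higher. Without control 1, and likewise without control 2, edgeR called 23 genes in all and 0 of the 10, of which 3 had an unadjusted *P* under 0.05, as 8.5% and 8.1% of all genes did, and it called 0.0709% and 0.0749% of all genes tested higher. Without *Eya1*cKO 1 it called 6 of the 10 higher, beside 18.7% of 22134 genes. Without *Eya1*cKO 2 it called 7 of the 9 that could be tested higher, beside 19.8% of 22440 genes. With a single library left in a group, that library is assumed to vary like the other group.

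**Figure D1:**
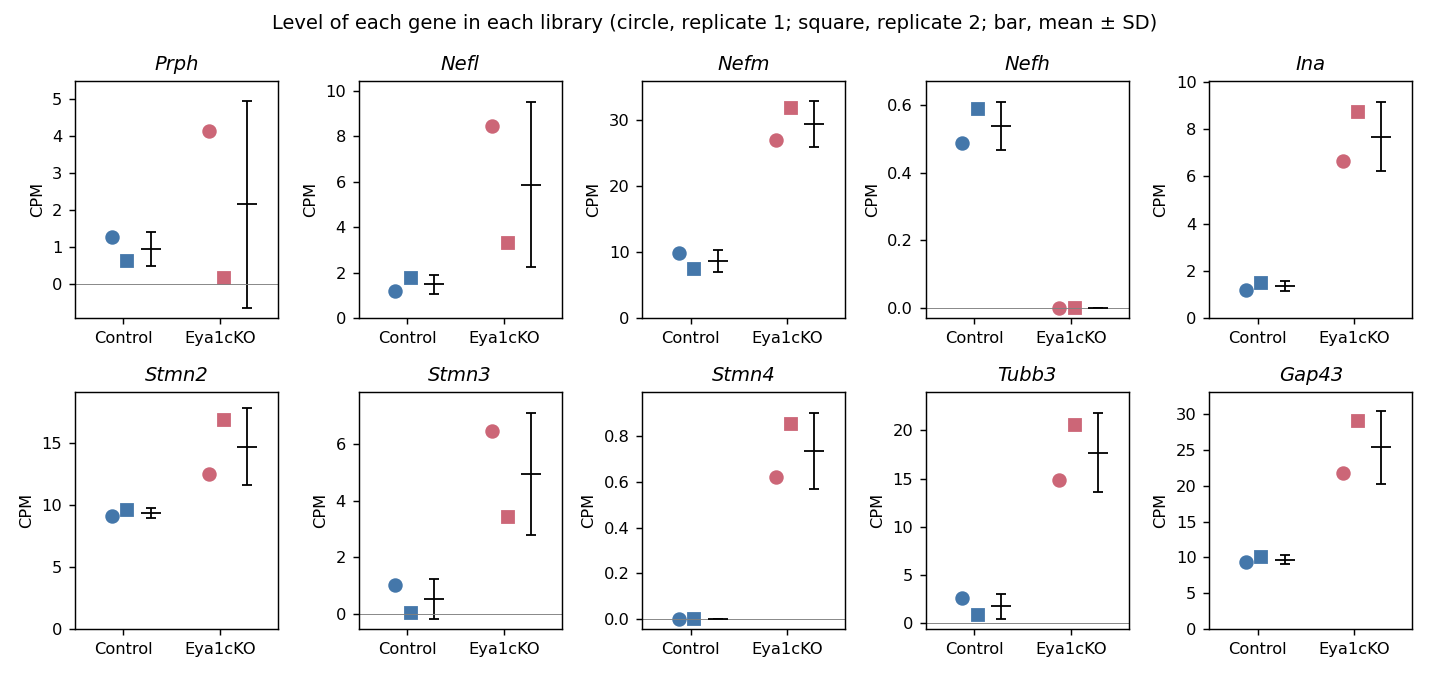
Level of each of the 10 genes in CPM (TMM-scaled, linear axes that differ between panels) in the 2 control and 2 *Eya1*cKO libraries; circles are replicate 1, squares replicate 2, and bars the mean ± SD of the 2 libraries. The *Eya1*cKO symbols lie above the control symbols in 8 panels, below in *Nefh*, and on both sides in *Prph*.

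Among the 5 filament genes of the set, *Nefm* (chromosome 14, 68082590 to 68124846) had the most reads. The controls held 344 and 281 of its reads and the *Eya1*cKO libraries 608 and 558, which is 9.85 and 7.5 CPM against 26.9 and 31.8 CPM. The genotypes were far apart and the libraries within each genotype were close, at most 1.31-fold. The mean rose from 8.68 ± 1.66 to 29.4 ± 3.47 CPM (SD, n = 2), a log2 fold change of 1.75 (SE 0.31, 95% interval 1.03 to 2.47; edgeR adjusted *P* = 0.017). The adjusted *P* was 0.37 without control 1 and 0.51 without control 2.

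*Ina* (chromosome 19, 47014698 to 47025327) was read 42 and 56 times in the controls against 150 and 153 times in *Eya1*cKO. These are 1.20 and 1.5 CPM against 6.64 and 8.72 CPM, so every *Eya1*cKO value exceeded every control value. The log2 fold change was 2.48 (SE 0.63, 95% interval 0.98 to 3.97) and the adjusted *P* of 0.056 in edgeR was just over the threshold. Over the alternatives it ranged from 0.00033, without *Eya1*cKO 1, to 0.68, without control 1, and it passed in 4 of 12. Those 4 were DESeq2 (0.0031), a filter of 10 reads in every library (0.024) and removal of either *Eya1*cKO library.

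*Nefl* (chromosome 14, 68083863 to 68089095) was read 42 and 67 times in the controls against 191 and 58 times in *Eya1*cKO. In CPM these were 1.20 and 1.79 against 8.45 and 3.31, with the higher *Eya1*cKO library 2.55-fold above the other (95% counting interval 1.90 to 3.49). The genotypes did not overlap, but the adjusted *P* was 0.13 (log2 fold change 2.04, SE 0.74, 95% interval 0.29 to 3.79). Without *Eya1*cKO 2 the log2 fold change was 2.47 (adjusted *P* = 0.00053), and without *Eya1*cKO 1 it was 1.12 (adjusted *P* = 0.22).

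The genes *Nefl* and *Nefm* lie on opposite strands of chromosome 14 and their annotated exons share 1108 bases, 32.8% of the exonic length of *Nefl* and 19.2% of that of *Nefm*. The libraries were stranded, but the strand setting of the read counting was not given in the sources used here. Without it, reads in that stretch cannot be assigned to 1 of the pair, so their levels carry this uncertainty. *Ina* shares 456 bases, 14.1% of its exonic length, with *Nt5c2* on the opposite strand.

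*Prph* (chromosome 15, 99055174 to 99058978) encodes the filament protein of peripheral neurons. The controls held 44 and 23 of its reads, *Eya1*cKO 1 held 93 and *Eya1*cKO 2 only 3, which is 1.26 and 0.614 CPM against 4.12 and 0.171 CPM. The *Eya1*cKO libraries stood on either side of the controls and differed 24.0-fold from each other (95% counting interval 7.98 to 119). The log2 fold change was 1.36 with an interval that spans 0 (-1.16 to 3.89; adjusted *P* = 0.44). It was 2.13 without *Eya1*cKO 2 (adjusted *P* = 0.015) and -2.42 without *Eya1*cKO 1 (adjusted *P* = 0.33), so its direction was set by 1 library.

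Such gaps were not rare in *Eya1*cKO at this depth. Of the 2609 tested genes whose *Eya1*cKO libraries averaged 25 to 75 reads, 72.0% differed over 2-fold and 29.5% over 10-fold between those libraries. For the 3096 genes whose controls averaged 25 to 75 reads, the shares were 30.1% and 1.13%.

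*Nefh* (chromosome 11, 4938754 to 4948064) encodes the heavy neurofilament protein, which joins the filament last as axons mature. There were 17 and 22 reads of it in the controls and 0 in both *Eya1*cKO libraries, which is 0.487 and 0.588 CPM against less than the 3-read limit of 0.133 and 0.171 CPM. Taking that limit of 3 reads for each *Eya1*cKO library, *Nefh* was at least 3.5-fold lower than in the controls (edgeR adjusted *P* = 0.11). That limit covers counting error only. Such a loss was not particular to *Nefh*: among 731 tested genes with 10 to 25 reads in both controls, 92 (12.6%) had none in either *Eya1*cKO library.

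Summed over the 5 filament genes, the level went from 14.0 and 12.0 CPM (controls) to 46.1 and 44.0 CPM (*Eya1*cKO). *Nefm* passed the test, *Ina*, *Nefl* and *Prph* had positive log2 fold changes that did not, and *Nefh* was not detected in *Eya1*cKO.

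The neuronal stathmins differed among themselves. *Stmn2* (chromosome 3, 8509360 to 8561606) is a growth cone protein of regenerating axons and was the most abundant of the 3 in the controls. The controls held 318 and 361 of its reads and the *Eya1*cKO libraries 282 and 297, which after scaling is 9.11 and 9.64 CPM against 12.5 and 16.9 CPM. The *Eya1*cKO libraries lay above the controls, by a log2 fold change of 0.62 (SE 0.36, 95% interval -0.24 to 1.48; adjusted *P* = 0.31), and it passed in 1 of 12 alternatives. Without *Eya1*cKO 1 the log2 fold change was 0.84 (adjusted *P* = 0.029) and without *Eya1*cKO 2 it was 0.40 (adjusted *P* = 0.29).

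*Stmn3* (chromosome 2, 181306459 to 181314500) was read 36 times in control 1 but 2 times in control 2, against 146 and 60 times in the *Eya1*cKO pair. In CPM these were 1.03 and 0.0534 against 6.46 and 3.42, and the 2 controls differed 19.3-fold (95% counting interval 4.97 to 165). The groups did not overlap, and the log2 fold change was 3.28 (SE 0.99, 95% interval 0.98 to 5.57; adjusted *P* = 0.082). Without control 1 it was 6.44, which rests on the 2 reads of control 2, and without control 2 it was 2.29, and the adjusted *P* was 0.016 without *Eya1*cKO 1 and 0.00029 without *Eya1*cKO 2.

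*Stmn4* (chromosome 14, 66344296 to 66361680) had no read in either control and 14 and 15 reads in *Eya1*cKO. Its level of 0.620 and 0.855 CPM in *Eya1*cKO was at least 8.9-fold higher than the controls, taken at 3 reads in each control library (adjusted *P* = 0.043 in edgeR, fitted across all genes). Both *Eya1*cKO libraries detected it and both deeper control libraries did not. Among 254 tested genes with 10 to 25 reads in both *Eya1*cKO libraries, 5 (1.97%) had none in either control. *Stmn4* entered the test only through the *Eya1*cKO libraries, and it passed in 2 of 10 alternatives. Its edgeR adjusted *P* was 0.21 without the filter on low counts and 0.11 with the older quasi-likelihood fit. After thinning the counts to the total of the shallowest library it was 0.083. The adjusted *P* was 0.093 with DESeq2, 0.71 without control 1, 0.70 without control 2 and 0.077 without *Eya1*cKO 1, and without *Eya1*cKO 2 the gene did not pass the filter.

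*Tubb3* (chromosome 8, 123411424 to 123422015) had the largest change among the called genes with reads in both groups. The controls held 92 and 31 of its reads and the *Eya1*cKO libraries 335 and 361, which is 2.63 and 0.828 CPM against 14.8 and 20.6 CPM. The controls differed 3.18-fold (95% counting interval 2.10 to 4.95) but both lay far below the *Eya1*cKO libraries. The mean rose from 1.73 ± 1.28 to 17.7 ± 4.07 CPM (SD, n = 2), with a log2 fold change of 3.35 (SE 0.57, 95% interval 1.99 to 4.70; edgeR adjusted *P* = 0.016). Without control 1 the log2 fold change was 4.36 (adjusted *P* = 0.28), and without control 2 it was 2.70 (adjusted *P* = 0.44). With edgeR's older quasi-likelihood fit the adjusted *P* was 0.052.

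*Gap43* (chromosome 16, 42248442 to 42340651) was read 324 and 379 times in the controls against 493 and 508 times in *Eya1*cKO, or 9.28 and 10.1 CPM against 21.8 and 29.0 CPM. The controls agreed within 1.09-fold and the *Eya1*cKO libraries within 1.33-fold. The mean rose from 9.70 ± 0.596 to 25.4 ± 5.05 CPM (SD, n = 2), with a fitted log2 fold change of 1.36 (SE 0.31, 95% interval 0.62 to 2.10; edgeR adjusted *P* = 0.041). The adjusted *P* was 0.59 without control 1 and 0.60 without control 2. With all 4 libraries it was 0.075 without the filter on low counts, 0.063 with edgeR's older quasi-likelihood fit and 0.079 after thinning the counts to the total of the shallowest library, and the gene passed in 6 of 12 alternatives.

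**Figure D2:**
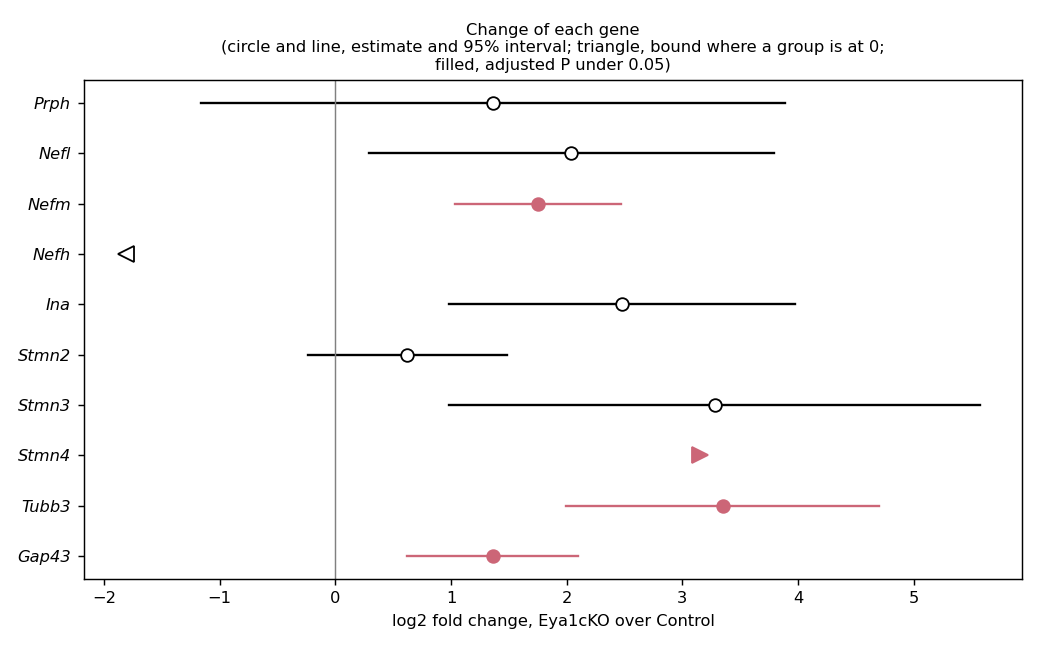
log2 fold change (*Eya1*cKO over control) of each gene with its 95% interval from the edgeR fit; triangles mark *Nefh* and *Stmn4* at the bound given by 3 reads per library in the group without reads, and filled symbols passed an adjusted *P* of 0.05. The intervals of *Prph* and *Stmn2* cross 0, those of *Nefl*, *Ina* and *Stmn3* lie above 0 without passing the adjusted threshold, and *Nefh* is the only symbol below 0.

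Levels of different genes were compared as CPM per kb of exon. In the controls *Gap43* was highest, at 6.37 ± 0.392 CPM per kb (SD, n = 2), above both values of every other gene in the set. *Stmn2* (1.67 ± 0.0675 CPM per kb) and *Nefm* (1.5 ± 0.287 CPM per kb) followed, and their libraries overlapped, as did those of *Nefm* and *Tubb3*. *Tubb3*, *Stmn3*, *Prph*, *Nefl* and *Ina* had control means from 0.927 down to 0.416 CPM per kb and could not be ordered by their libraries. *Nefh* was at 0.134 ± 0.0178 CPM per kb and *Stmn4* was not detected.

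In *Eya1*cKO *Gap43* again led, at 16.7 ± 3.32 CPM per kb (SD, n = 2), and *Tubb3* was next at 9.48 ± 2.18 CPM per kb without overlap with either neighbour. *Nefm* (5.08 ± 0.599 CPM per kb) and *Stmn3* (4.35 ± 1.89 CPM per kb) overlapped each other, and *Stmn3*, *Stmn2* (2.62 ± 0.562 CPM per kb), *Ina* (2.37 ± 0.455 CPM per kb) and *Nefl* (1.74 ± 1.08 CPM per kb) each overlapped the next. *Prph* ranged from 0.0855 to 2.06 CPM per kb and took in the level of *Stmn4*, 0.385 ± 0.0869 CPM per kb.

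Within their families, *Tubb3* and *Stmn2* to *Stmn4* were small shares beside *Tubb5* and *Stmn1*. *Tubb3* made up 0.163% and 0.0496% of the beta tubulin level per exonic length in the controls and 1.27% and 1.62% in *Eya1*cKO. *Tubb5* made up 78.4% and 78.6% in the controls and 71.0% and 71.8% in *Eya1*cKO. Its level was lower in *Eya1*cKO by a log2 fold change of -0.57 (edgeR adjusted *P* = 0.0031). *Tubb2a*, *Tubb2b*, *Tubb4a*, *Tubb4b* and *Tubb6* did not pass the threshold in edgeR, and *Tubb1* had at most 2 reads in a library.

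*Stmn1* held 98.3% and 98.9% of the stathmin level per length in the controls and 92.0% and 94.2% in *Eya1*cKO. It was lower in *Eya1*cKO, at 183 and 202 CPM against 274 and 299 CPM (log2 fold change -0.58; edgeR adjusted *P* = 0.014). The share of *Stmn2* was 1.12% and 1.09% in the controls and 2.15% and 2.71% in *Eya1*cKO. The share of *Stmn3* was 0.625% and 0.0299% against 5.50% and 2.70%, and that of *Stmn4* 0.313% and 0.399% in *Eya1*cKO.

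Among the 5 neuronal filament genes *Nefm* held the largest share in every library, 53.5% and 47.3% per exonic length in the controls and 41.3% and 59.4% in *Eya1*cKO. *Ina* held 11.7% and 16.8% in the controls and 18.2% and 29.1% in *Eya1*cKO. *Prph* held 18.3% in *Eya1*cKO 1 and 0.924% in *Eya1*cKO 2.

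**Figure D3:**
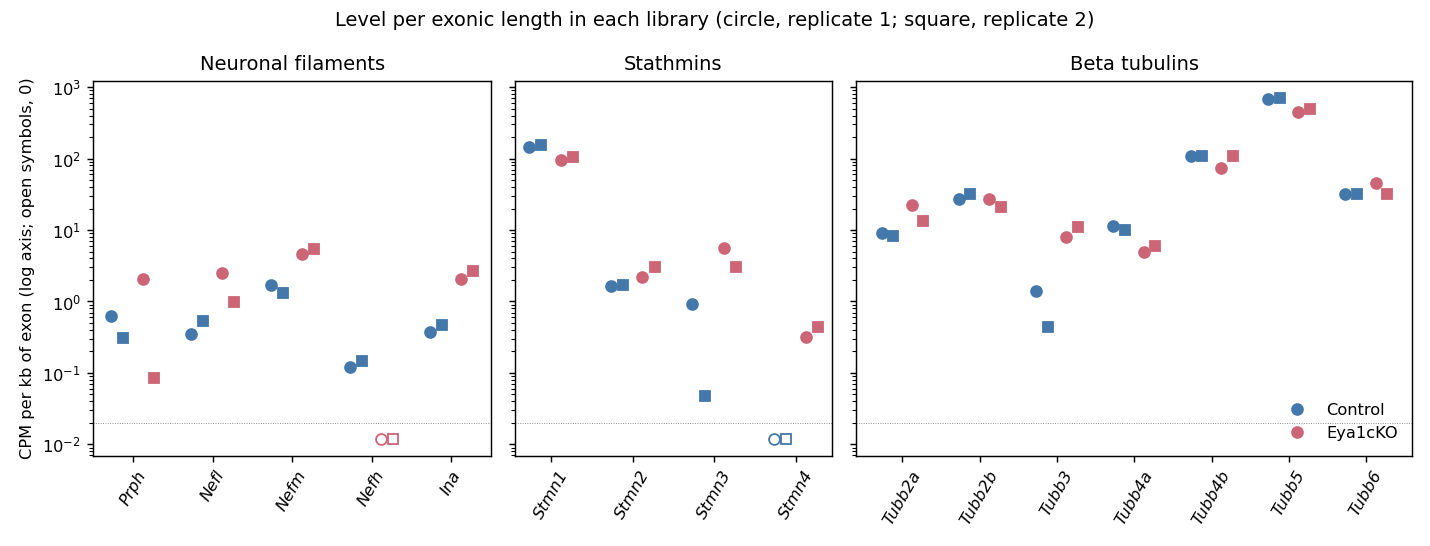
Level per exonic length (CPM per kb, log axis) of the neuronal filament, stathmin and beta tubulin genes in each library; circles are replicate 1, squares replicate 2, and open symbols under the dotted line are libraries without a read. *Stmn1* and *Tubb5* lie far above *Stmn2* to *Stmn4* and *Tubb3* in all 4 libraries, and *Tubb3* is the beta tubulin whose genotypes are farthest apart.

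Of 11 other intermediate filament genes tested, 3 were higher and 2 lower. Vimentin (*Vim*), the filament of mesenchymal cells, rose from 549 and 599 to 1001 and 1112 CPM (log2 fold change 0.88, edgeR adjusted *P* = 0.0016). *Lmna* (1.15, adjusted *P* = 0.0034) and *Nes*, nestin of progenitor cells (0.38, adjusted *P* = 0.023), also rose. The muscle filament gene *Des* (-0.89, adjusted *P* = 0.020) and the lamin *Lmnb1* (-0.57, adjusted *P* = 0.049) fell. *Gfap*, the filament of astrocytes and some glia, had 71, 5, 4 and 0 reads and was not tested.

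Of 13 other stathmin and tubulin genes tested, 0 were higher in edgeR (1 at an unadjusted *P* under 0.05 and 1 in DESeq2). Lower in edgeR were 4, *Tubb5*, *Stmn1*, *Tuba1b* and *Tubg1* (6 at an unadjusted *P* under 0.05 and 5 in DESeq2). The median log2 fold change was -0.26 over the list. Of 17 genes for microtubule-associated proteins, 2 were higher and 1 lower (median 0.42). *Mapt*, tau of axons, rose from 16.0 and 18.0 to 78.9 and 96.8 CPM (log2 fold change 2.35, edgeR adjusted *P* = 0.0014) and *Map1a* rose by 0.95 on the log2 scale (adjusted *P* = 0.033). *Dcx*, doublecortin of migrating young neurons, fell from 22.8 and 23.2 to 7.83 and 8.61 CPM (log2 fold change -1.49, adjusted *P* = 0.035).

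Of 22 growth cone and axon membrane genes tested, 4 were higher and 3 lower, with a median log2 fold change of 0.01. *Dpysl3*, a collapsin response mediator of the growth cone, rose from 68.8 and 62.8 to 197 and 237 CPM (log2 fold change 1.72, edgeR adjusted *P* = 0.0011). *Nfasc* (3.12, adjusted *P* = 0.023), *L1cam* (1.15, adjusted *P* = 0.043) and *Ank2* (0.87, adjusted *P* = 0.027), which belong to axonal adhesion and its membrane skeleton, rose as well. *Fscn1* (-0.53), *Marcksl1* (-0.43) and *Ank3* (-0.54) fell (adjusted *P* = 0.0054, 0.0073 and 0.029). For 14 genes of axonal transport motors the count was 0 in edgeR, with a median of 0.05. At an unadjusted *P* under 0.05, 3 of them were higher and 2 lower, and DESeq2 called 1 higher.

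**Figure D4:**
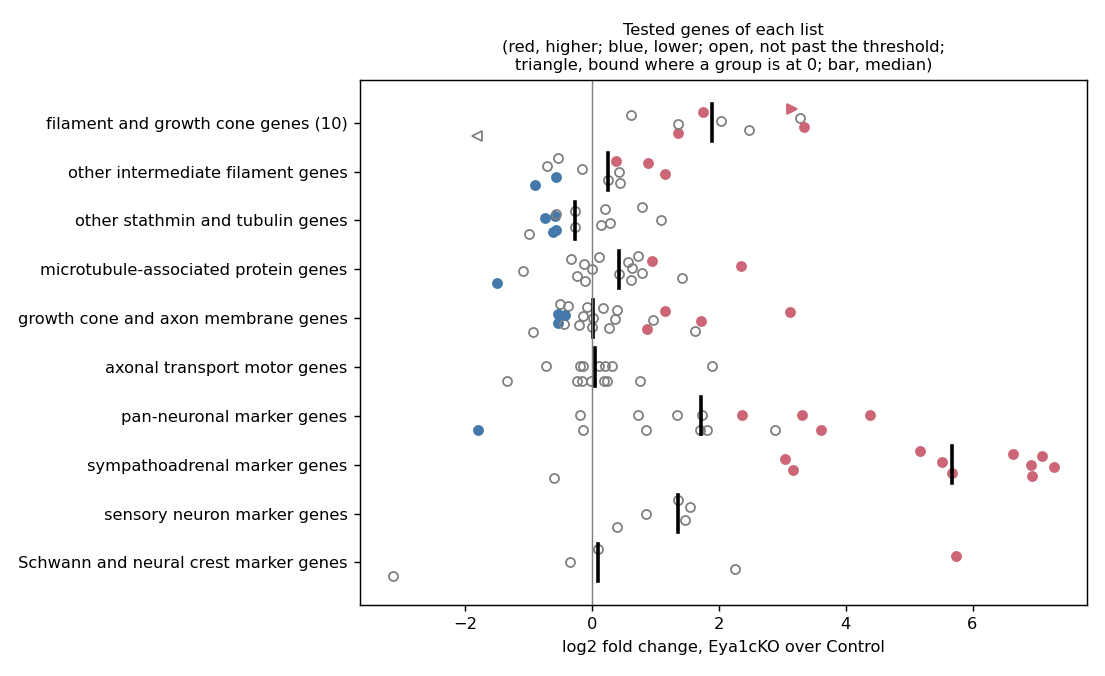
log2 fold change (*Eya1*cKO over control) of each tested gene in the set of 10 and in 9 comparison lists; red was higher, blue lower and open not past an adjusted *P* of 0.05, triangles are bounds for *Nefh* and *Stmn4*, and the bar is the median. Most of the set of 10 and the pan-neuronal markers lie right of 0, the motors and growth cone membrane genes lie on both sides, and the sympathoadrenal list has the median farthest right of the lists drawn, with *Gata3* left of 0.

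Marker genes of several cell types also differed between the genotypes. Of 14 pan-neuronal markers, 4 were higher and 1 lower in edgeR, and 8 were higher and 1 lower in DESeq2, with a summed level of 115 CPM in each control and 200 and 201 CPM in *Eya1*cKO. The RNA-binding protein genes *Celf3* (log2 fold change 3.61, edgeR adjusted *P* = 0.0075) and *Elavl3* (3.31, adjusted *P* = 0.036), *Nsg2* (2.37, adjusted *P* = 0.013) and *Scg3* of secretory granules (4.38, adjusted *P* = 0.015) rose. *Elavl4* fell (-1.80, adjusted *P* = 0.032), from 18.8 and 22.7 to 6.28 and 5.59 CPM.

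Of 11 sympathoadrenal markers, which define sympathetic neurons and chromaffin cells of the adrenal medulla, 10 were higher in edgeR and in DESeq2, and 0 were lower by either or at an unadjusted *P* under 0.05. Their summed level rose from 37.5 and 44.7 to 602 and 627 CPM. The granin gene *Chga* rose from 1.26 and 1.39 to 154 and 171 CPM, and *Th*, the rate-limiting enzyme of catecholamine synthesis, from 0.258 and 0.374 to 47.6 and 54.2 CPM. *Chgb* rose from 1.95 and 5.07 to 188 and 179 CPM, and *Dbh*, which makes noradrenaline, had a log2 fold change of 6.92 (edgeR adjusted *P* from 5.5e-05 to 0.00031 over these 4 genes). *Gata3*, which the ureteric bud list holds as well, did not pass the test (adjusted *P* = 0.26).

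Of the 5 sensory neuron markers tested 0 passed the threshold in edgeR or DESeq2 (1 at an unadjusted *P* under 0.05), with a summed level of 17.0 to 18.8 CPM in the controls and 26.8 to 44.7 CPM in *Eya1*cKO. *Drgx* was not matched, and *Prdm12* and *Scn10a* were too low to test. Of 3 motor neuron markers tested 1 was higher, *Isl2* (adjusted *P* = 0.037), with a summed level of 0.687 to 0.721 CPM in the controls and 3.53 to 7.70 CPM in *Eya1*cKO, while *Mnx1* had at most 3 reads in every library and 0 in *Eya1*cKO. Of 5 Schwann and neural crest markers tested 1 was higher, *Sox10*, from 0 and 0.134 to 3.67 and 4.28 CPM (adjusted *P* = 0.035). The summed level of that list was 27.5 to 29.0 CPM in the controls and 30.0 to 40.2 CPM in *Eya1*cKO.

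All 7 adrenal cortex markers were higher, from a summed 12.1 to 19.1 CPM in the controls to 693 to 729 CPM in *Eya1*cKO. Of 8 podocyte markers 7 were higher (897 to 915 against 2865 to 2906 CPM), and all 8 endothelial markers were higher (660 to 676 against 1185 to 1228 CPM). Among 7 renal stroma markers 4 were higher and 1 lower (1686 to 1689 against 3404 to 3467 CPM). Within that stroma sum, *Col3a1* alone went from 965 and 962 CPM to 2431 and 2412 CPM. The 9 nephron progenitor markers summed to 344 to 373 CPM in *Eya1*cKO. Of 7 ureteric bud markers 1 was higher and 2 were lower (287 to 294 against 229 to 235 CPM). In edgeR and in DESeq2, 0 of 5 macrophage markers (92.5 to 95.3 against 86.5 to 111 CPM) and 0 of 3 skeletal muscle markers tested (9.11 to 10.4 against 4.85 to 15.0 CPM) passed the threshold, with 1 and 0 at an unadjusted *P* under 0.05, and *Myf5* had no read. The erythroid globin genes *Hba-a1*, *Hba-a2*, *Hbb-bs* and *Hbb-bt* had at most 3 reads in every library and were not tested. The globin genes are near-identical copies, so reads that map to more than 1 copy are not counted for them. The part of any of these cell types in the levels of the 10 genes was not tested.

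*Rest* was measured at 251 and 244 CPM in control against 203 and 202 CPM in *Eya1*cKO. It did not pass the edgeR test (adjusted *P* = 0.077, unadjusted *P* = 0.0099). Of 14 genes for REST and its corepressors, 0 were higher in edgeR, in DESeq2 or at an unadjusted *P* under 0.05 in edgeR. In edgeR 4 were lower, against 7 in DESeq2 and 7 at an unadjusted *P* under 0.05 in edgeR. The median log2 fold change was -0.27. The 4 lower in edgeR were the histone demethylase *Kdm1a* (-0.61, adjusted *P* = 0.0074), *Rcor2* (-1.13, adjusted *P* = 0.0082), the deacetylase *Hdac2* (-0.52, adjusted *P* = 0.016) and *Rbbp4* (-0.43, adjusted *P* = 0.022). Whether these levels bear on those of the 10 genes was not tested.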

How the data were processed

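Poly(A) RNA of 5000 sorted cells per library was made into random-primed, stranded libraries and sequenced as single 75-base reads. The authors aligned the reads to mm10 with HISAT2 and counted them per Ensembl gene with HTSeq. The deposited values are raw read counts per gene, and the strand setting is not given in the sources used here. The labels and the study's methods differ on how many kidneys and females were used.

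Genes were filtered with filterByExpr (minimum count 10), scaled by TMM and tested for genotype in all 4 libraries with edgeR 4.0.16 (R 4.3.3, quasi-likelihood, Benjamini-Hochberg over 19041 genes, threshold 0.05). Reads that HTSeq assigned to no gene (no feature, ambiguous, not aligned or not unique) were left out. Standard errors and 95% intervals came from that fit. CPM are TMM-scaled, and CPM per kb use the union of exons in GENCODE for GRCm38. Counting intervals of library ratios (exact binomial) and the limit of 3 reads cover counting error only. That limit lay between 0.0801 and 0.171 CPM in single libraries, and folds against a genotype without reads used its mean over the 2 libraries (0.152 CPM in Eya1cKO, 0.0829 CPM in control).

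The 10 genes and the comparison lists were chosen with earlier results of these data known, so no list was tested as a set. The erythroid marker list is reported here only for its globin genes. Genes named from a list were at most the 4 of smallest P past the threshold in each direction whose libraries did not overlap, with family relatives, markers of at most 3 reads in every library and Eya1. Gata3, Drgx, Prdm12, Scn10a, Nt5c2 and Rest were named outside that rule, after their values were seen. Promoters were from RefSeq (GRCm38.p6). The alternatives were 2 other scalings, 2 other filters, DESeq2 1.42.0, edgeR's older quasi-likelihood fit, a replicate block, thinning and removal of each library.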

Additional observations from a re-analysis of the deposited data

How the results depend on the processing

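The called genes among the 10 were also 4 with DESeq2 size factors and with library totals alone. They were 4 of 6 tested with a filter of 10 reads in every library and 4 of 9 tested with DESeq2, although not always the same genes. They were 2 without a filter on low counts, 2 after thinning to the shallowest library, 1 with edgeR's older quasi-likelihood fit and 0 to 7 with 1 library removed. Gap43 and Stmn4 were lost without the filter and after thinning, and Tubb3, Gap43 and Stmn4 with the older fit. Over all genes, calls numbered 1820, against 1055 without the filter, 3102 with DESeq2, 1096 with the older fit, 1186 after thinning, and 23 to 7925 with 1 library removed. With a replicate block, calls were 621 over all genes and 1 among the 10, Tubb3 (adjusted P = 0.049). The study does not say that library numbers pair samples. Same-numbered libraries' deviations correlated at 0.0062 across 19041 genes, but with 2 pairs and noisy low counts this value cannot show whether they pair. Whether the block takes up a shared effect was not tested. The median log2 fold change of the 10 ranged from 1.72 to 2.13 with 1 library removed and from 1.87 to 1.95 otherwise. The fold change of Prph reversed to -2.42 without Eya1cKO 1, and ranged up to 2.13. The filter of 10 reads in every library left Prph, Nefh, Stmn3 and Stmn4 untested, and DESeq2 gave Nefh no adjusted P. The median of all genes was -0.21 without the filter, -0.16 without Eya1cKO 1 and -0.11 without Eya1cKO 2. Where a call changed, the cause was not tested. A gene without a read in a library may have had a level of up to 0.0801 to 0.171 CPM there, 3 reads depending on the library.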
